A study of Bos taurus with 10 samples.

Results

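The calgranulins S100A8 (ENSBTAG00000012640), S100A9 (ENSBTAG00000006505) and S100A12 (ENSBTAG00000012638) were followed through the blood of cattle (Bos taurus) with different copper levels. They were chosen by identifier as neutrophil proteins that bind zinc and copper, with earlier results of these data known, and are 3 of the 24616 Ensembl genes in the count tables. All 3 were counted in every library and passed the filter on low counts, which 12932 genes passed. Poly(A) RNA was sequenced from 10 pools, each of blood from 3 animals: 5 control pools and 5 pools from animals that received minerals to raise copper (called supplemented here). Breed, age, sex, housing and the make-up of the supplement are not given in the labels used here, and a pool gives a single average over its animals. The labels give an average blood copper level for each pool without a unit. It was 23.42, 24.58, 56.18, 63.37 and 95.61 in control pools 1 to 5 and 95.48, 185.99, 183.61, 342.42 and 330.75 in supplemented pools 1 to 5, so that control pool 5 and supplemented pool 1 had nearly the same level.

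S100 proteins are small calcium-binding proteins. S100A8 and S100A9 pair to form calprotectin, a major protein of the neutrophil cytosol that withholds metals from microbes, a defence called nutritional immunity. S100A12 is a related neutrophil protein that binds zinc and copper and is a ligand of the receptor RAGE. In the reference order of RefSeq genes (assembly ARS-UCD2.0) the genes are direct neighbours on chromosome 3, in the order S100A8, S100A12, S100A9, followed by a long non-coding RNA, LOC132344836. The count tables were made on another build, so no coordinates are given. The tables pair no other identifier with a symbol, so other S100 genes, neutrophil granule genes, calgranulin receptors and markers of other blood cells were not analysed here.

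Depth was 24487010 to 32663198 gene counts per library. The tables give no batch, and nothing in the labels says whether the pools were drawn from separate herds or days, so p-values reflect no more than how these 10 pools vary. In whole blood, fewer cells of a type and less RNA per cell cannot be told apart.

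All 3 transcripts were abundant. By mean count over the pools, which is not corrected for transcript length, S100A12 was in place 88, S100A9 in place 138 and S100A8 in place 582 of all genes. Together they took 0.239 ± 0.0616% of gene counts in control pools and 0.288 ± 0.0621% in supplemented pools (SD, n = 5 each). The combined share was lowest in control pool 5, at 0.173% (95% Wilson interval 0.171 to 0.174%), and highest in supplemented pool 3, at 0.361% (0.359 to 0.364%). These intervals cover counting error only, and they are far narrower than the spread between pools. Leaving aside control pool 5, the other control pools took 0.239, 0.329, 0.262 and 0.193%, and supplemented pools 1, 2, 4 and 5 took 0.266, 0.199, 0.285 and 0.329%, so the groups overlapped widely.

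S100A8, the smaller partner in calprotectin, had 255, 391, 298, 177 and 125 CPM (counts scaled to library size, here with TMM factors) in control pools 1 to 5. In supplemented pools 1 to 5 it had 288, 205, 421, 296 and 393 CPM. The groups overlapped, although 2 supplemented pools lay above every control and 2 controls lay below every supplemented pool. The means were 249 ± 104 and 321 ± 87.0 CPM (SD, n = 5 each).

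S100A9, the other partner, had 958, 1383, 1149, 616 and 642 CPM in control pools 1 to 5. In supplemented pools 1 to 5 it had 935, 649.7, 1396, 978 and 1229.8 CPM. The groups overlapped here too, with 1 supplemented pool above every control, 2 controls below every supplemented pool and group means of 949.6 ± 329 and 1038 ± 287 CPM (SD, n = 5 each).

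S100A12 had 1279, 1694, 1395, 971 and 836 CPM in control pools 1 to 5. In supplemented pools 1 to 5 it had 1325, 929.8, 2029.7, 1812 and 1673 CPM. The pattern was that of S100A8, in that 4 of 5 supplemented pools lay above the control median for each of these genes, against 3 of 5 for S100A9. The S100A12 means were 1235 ± 342 and 1554 ± 433 CPM (SD, n = 5 each).

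**Figure D1:**
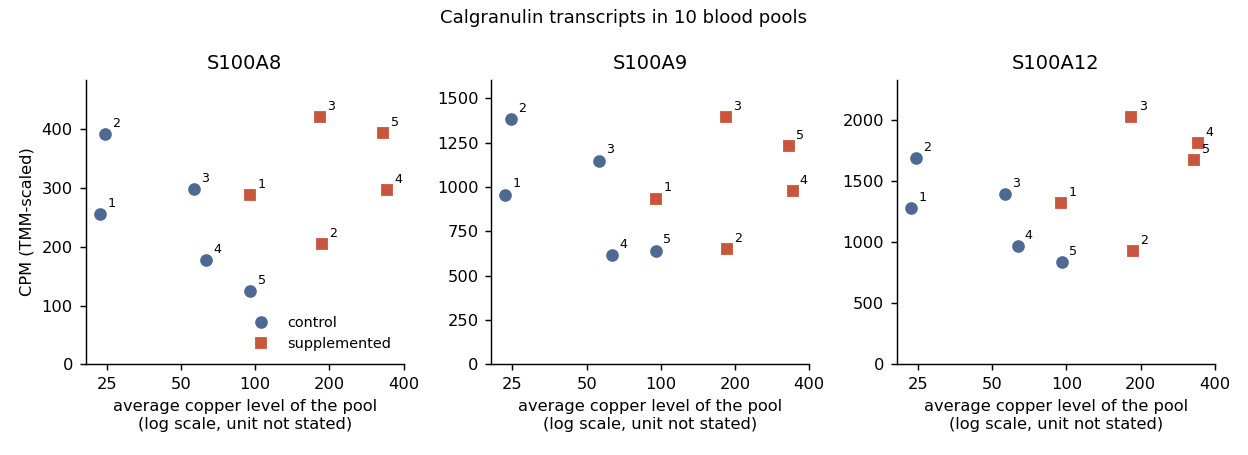
TMM-scaled CPM of S100A8, S100A9 and S100A12 (y axes, from 0) against the average copper level of each pool (x axis, log scale, unit not stated), with circles for control and squares for supplemented pools and the pool number beside each point. Supplemented pool 3 was highest for each gene, and control pools 4 and 5 and supplemented pool 2 were the 3 lowest.

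The first comparison asked whether the calgranulins differed between supplemented and control animals. None of the 3 changed past the threshold. The fitted log2 fold change was 0.36 for S100A8 (SE 0.27), 0.33 for S100A12 (SE 0.22) and 0.13 for S100A9 (SE 0.24), each with an adjusted p of 1.00 (edgeR, quasi-likelihood, Benjamini-Hochberg over all genes). The unadjusted p-values were 0.199, 0.163 and 0.608 in the same test. On the fold scale, the 95% interval ran from 0.861 to 1.92 for S100A8, from 0.90 to 1.76 for S100A12 and from 0.760 to 1.57 for S100A9, so that a doubling lay outside each interval. For S100A8 this was narrow, since the upper bound on the log2 scale passed 1 when control pool 1, 2 or 3 or supplemented pool 1, 2 or 4 was left out, and reached 1.14 without control pool 2 and 1.14 with a replicate block.

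This count of 0 of 3 stands against a background of 0.00% of the 12932 genes called between the groups by edgeR, with 255 genes under an unadjusted p of 0.05. DESeq2's Wald test called 1 gene and limma's voom 0, none of them a calgranulin. Groups of pools did not overlap in CPM for 0.278% of all genes, and each calgranulin overlapped. The estimate for S100A8 was higher than that of 95.7% of genes tested, that for S100A12 higher than 94.9% and that for S100A9 higher than 80.9%, while the median over all genes was -0.01. The calgranulins were also among the genes that varied most over the pools whatever the group. The SD of log2 CPM over all 10 pools was 0.56 for S100A8, 0.45 for S100A9 and 0.44 for S100A12, against a median of 0.26 over all genes, and these exceeded 90.6%, 82.0% and 80.4% of genes.

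Single pools moved these estimates. Leaving out control pool 2, the control with the highest calgranulin levels, raised the log2 fold changes to 0.59 for S100A8, 0.30 for S100A9 and 0.47 for S100A12. Without control pool 5 that of S100A8 was 0.19, and without supplemented pool 3 those of S100A9 and S100A12 were -0.00217 and 0.22. Over all alternatives the adjusted p of S100A8 ranged from 0.989 to 1.00, that of S100A9 from 0.998 to 1.00 and that of S100A12 from 0.989 to 1.00 (edgeR, DESeq2 and limma). The lowest unadjusted p of S100A8 was 0.0403, without control pool 2 (edgeR, 95% interval 0.0303 to 1.14 on the log2 scale). For S100A12 it was 0.0362, without supplemented pool 2 (edgeR, 0.0353 to 0.904). For S100A9 it was 0.226, without control pool 2 (edgeR).

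The second comparison asked whether the calgranulins followed the copper level itself. The slope per doubling of copper over all 10 pools was 0.04 log2 units for S100A8 (SE 0.10), -0.01 for S100A9 (SE 0.09) and 0.07 for S100A12 (SE 0.08), and the adjusted p was 1.00 for each (edgeR). The 95% intervals ran from -0.17 to 0.26, from -0.20 to 0.18 and from -0.11 to 0.25. Of all genes 0.00% were called for this slope, with 344 under an unadjusted p of 0.05. DESeq2 called 7 genes and limma's voom 0, and no calgranulin was among them.

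With group in the model, a single slope on copper was fitted for both groups together. This common slope was negative for each gene, but it did not pass the threshold for any. It was -0.27 for S100A8 (SE 0.18), -0.19 for S100A9 (SE 0.17) and -0.12 for S100A12 (SE 0.16), with an adjusted p of 1.00 each (edgeR). The background was again 0.00% of genes called, with 205 under an unadjusted p of 0.05, and here DESeq2 called 1 gene, not a calgranulin, and voom called 0. Without control pool 5, which had the highest copper and the lowest S100A8 and S100A12 levels of the controls, these slopes were -0.08 for S100A8, -0.08 for S100A9 and 0.01 for S100A12. Without control pool 2 they were -0.13, -0.07 and -0.02. Without supplemented pool 1, which had the lowest copper of its group, they were steeper, at -0.43, -0.31 and -0.24, and still had an adjusted p of 0.988 or more (edgeR). At the copper level the groups share, control pool 5 and supplemented pool 1 differed for all 3 genes, with 125 against 288 CPM for S100A8, 642 against 935 CPM for S100A9 and 836 against 1325 CPM for S100A12. With 1 pool on each side this pair has no test. Slopes were not fitted for each group apart, and the common slope need not hold in both. Control pools 4 and 5, with the highest copper of the controls, had less of each gene than control pools 1, 2 and 3. Supplemented pools 4 and 5, with the highest copper of their group, had more of each gene than supplemented pool 1. Supplemented pool 2 lay below supplemented pool 1 for each gene, and supplemented pool 3 lay above it.

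**Figure D2:**
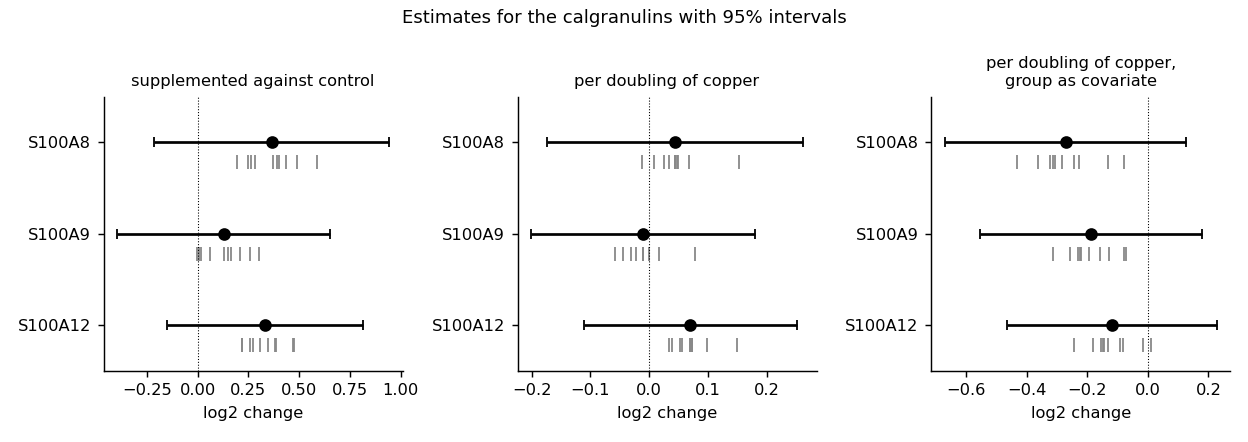
Log2 change of S100A8, S100A9 and S100A12 between the groups, per doubling of copper, and per doubling of copper with group as covariate (x axes), with 95% intervals as bars and grey ticks for the estimate with 1 pool left out. Every interval includes 0, and without supplemented pool 3 the group difference of S100A9 falls to -0.00217.

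The 3 transcripts rose and fell together from pool to pool. Over the 10 pools, log2 CPM of S100A8 and S100A9 had a Pearson's r of 0.93 (permutation p = 7.00e-05, or 0.000135 adjusted over the 3 pairs), while Spearman's rho was 0.96 (permutation p = 5.00e-05, adjusted 0.000150). For S100A8 and S100A12 r was also 0.93 (permutation p = 9.00e-05, adjusted 0.000135), with a rho of 0.90 (permutation p = 0.00061, adjusted 0.000915). For S100A9 and S100A12 r was 0.92 (permutation p = 0.00049, adjusted 0.00049), with a rho of 0.88 (permutation p = 0.00151, adjusted 0.00151). Without control pools 4 and 5, the pools farthest from the median, r was 0.95, 0.89 and 0.86 over the remaining 8.

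The members share libraries and scaling factors, so their likeness was also read against that of other genes. Ranked by r to S100A8 among 12931 other genes, S100A9 was in place 4 and S100A12 in place 5. Seen from S100A9, S100A8 was in place 19 and S100A12 in place 40, and seen from S100A12, S100A8 was in place 9 and S100A9 in place 28. Of the variance of the 3 genes over the pools, 94.1% lay in their common mean and 5.87% in differences between them. The same 3 pools, control pools 4 and 5 and supplemented pool 2, were lowest for each gene, both in CPM and in unscaled shares of counts. These pools also had TMM factors of 1.08 to 1.12, against 0.922 to 1.05 in the other 7 pools, and a factor above 1 lowers a CPM. The part of scaling in this pattern was not tested. In unscaled shares the highest pool exceeded the lowest by 2.94-fold for S100A8, 1.95-fold for S100A9 and 2.12-fold for S100A12, against 3.37, 2.27 and 2.43-fold in CPM, and with library size alone as the scale the 3 pairwise r were 0.92, 0.92 and 0.88.

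Beyond the calgranulins, 44 of 12929 genes had an r over 0.9 with the mean log2 CPM of the 3 genes and 67 had an r under -0.9, given as a description over 10 pools. The gene most like them was ENSBTAG00000007338, with r = 0.98 and 185 to 391 CPM. It too was lowest in control pool 5 and highest in supplemented pool 3. The next was ENSBTAG00000008964, with r = 0.97 and a much smaller range of 47.5 to 62.8 CPM. In the opposite direction, ENSBTAG00000020423 had r = -0.97 and 35.3 to 65.1 CPM, and ENSBTAG00000018093 had r = -0.95 and 19.7 to 65.5 CPM. Both were lowest in supplemented pool 3, where the calgranulins were highest.

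Ratios of counts between the calgranulins within a library do not depend on depth or scaling, and were compared next. They are not corrected for transcript length, so their size says nothing of relative transcript number, but their differences between pools can be read. The ratio of S100A9 to S100A8 was 3.76, 3.53, 3.86, 3.47 and 5.14 in control pools 1 to 5. In supplemented pools 1 to 5 it was 3.24, 3.17, 3.32, 3.30 and 3.13. The groups were fully apart, with all supplemented pools lower, and the supplemented pools differed little among themselves.

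The S100A9 to S100A8 ratio averaged 3.95 ± 0.682 (SD, n = 5) over the controls and 3.23 ± 0.0818 (SD, n = 5) over the supplemented pools, which is 17.4% lower by geometric means. The difference in log2 ratio was -0.28 (exact permutation test, two-sided p = 0.00794, the smallest that 5 pools against 5 allow, and 0.0238 adjusted over the 3 ratios). These ratios were built from genes chosen with earlier results known, and the adjustment covers no other genes or measures. The nearest pools of the groups were control pool 4, at 3.47 (95% exact binomial counting interval 3.37 to 3.58), and supplemented pool 3, at 3.32 (3.25 to 3.39). For comparison, the ratio of S100A9 to each other tested gene separated the groups for 0.0309% of 12931 genes, 4 in all with S100A8 among them. The ratio of S100A8 to each other gene did so for 0.162%, or 21 genes with S100A9 among them. The calgranulins vary together, with 94.1% of their variance in their common mean, which largely cancels in ratios between them. It stays in ratios to genes that do not vary with them. How often genes that vary together separate in this way was not tested, and these shares do not tell it.

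This difference depended in size on control pool 5, without which it was -0.18 (exact permutation p = 0.00794, adjusted 0.0238). Leaving out any 1 of the supplemented pools gave -0.28 to -0.26, but the exact permutation p was then 0.0238 and the adjusted p 0.0714, above the threshold of 0.05. Reads counted without regard to strand gave -0.28 with the same p. The pools with high ratios included those with a high share of counts on the strand opposite to the annotation. That share was 2.88% in control pool 1, 2.76% in control pool 5 and 2.13 to 2.47% in the other 8 pools. Over all 10 pools its r with the log2 ratio was 0.69 (permutation p = 0.0354, or 0.213 adjusted over 6 such measures), with a rho of 0.62 (permutation p = 0.0606, adjusted 0.364). Without those 2 pools r was 0.32, so the relation rests on them. Whether the opposite-strand share has a part in the difference between the groups was not tested. For the other library measures (unmapped, multimapping and unassigned reads, genes detected and depth) the adjusted permutation p was 0.222 or more.

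**Figure D3:**
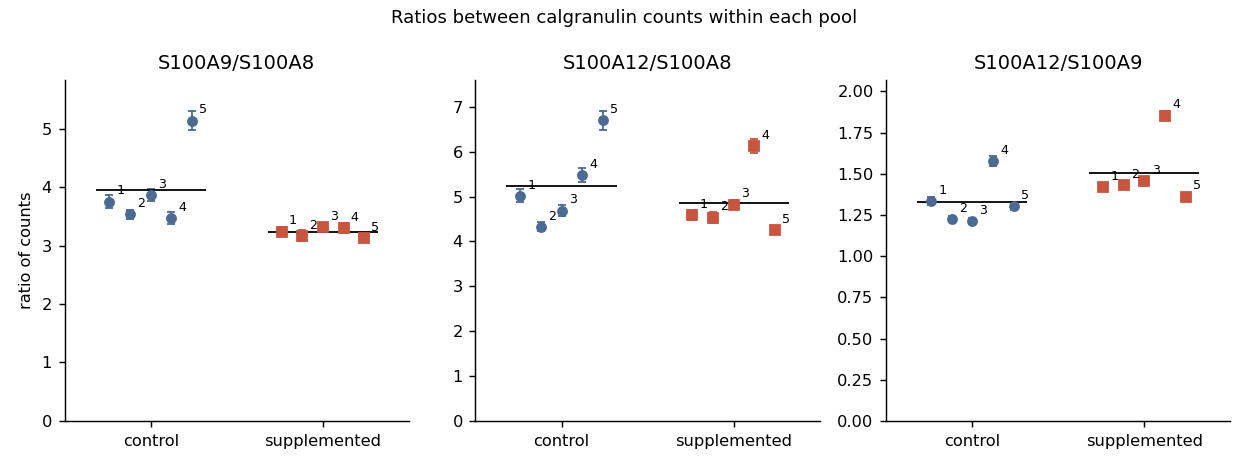
Ratios of counts between the calgranulins in each pool (y axes, from 0), with circles for control and squares for supplemented pools, pool numbers, group means as lines and 95% exact binomial counting intervals as bars. For S100A9 to S100A8 the supplemented pools lie at 3.13 to 3.32 and the controls at 3.47 to 5.14, while the other 2 ratios overlap.

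S100A12 had no such separation from either partner. The ratio of S100A12 to S100A8 was 5.02, 4.33, 4.69, 5.47 and 6.70 in control pools 1 to 5 and 4.59, 4.53, 4.82, 6.12 and 4.26 in supplemented pools 1 to 5. The groups overlapped, with a difference in log2 ratio of -0.10 (exact permutation test, two-sided p = 0.484, adjusted 0.484). It was -0.00936 without control pool 5 and -0.19 without supplemented pool 4. The ratio of S100A12 to S100A9 was 1.34, 1.22, 1.21, 1.58 and 1.30 in controls and 1.42, 1.43, 1.45, 1.85 and 1.36 in supplemented pools. All 5 supplemented pools lay above the control median, but control pool 4 lay above 4 of them, and the difference of 0.17 did not pass the threshold (exact permutation test, two-sided p = 0.127, adjusted 0.190). Without control pool 4 it was 0.24, with an exact permutation p of 0.0159 and an adjusted p of 0.0238.

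**Figure D4:**
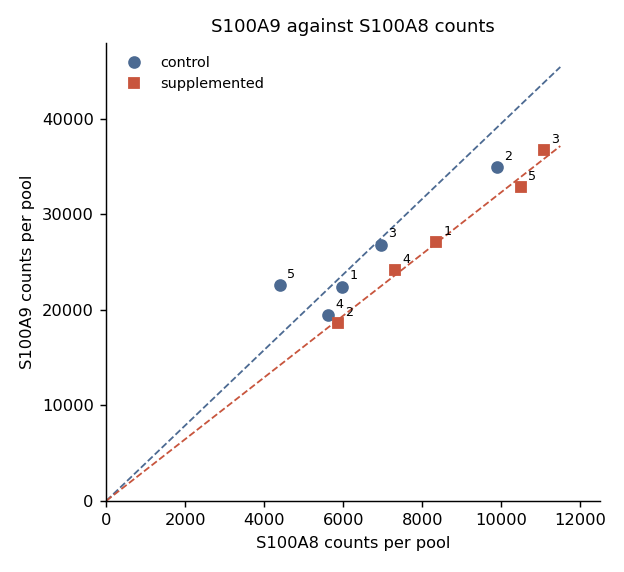
Counts of S100A9 (y axis) against counts of S100A8 (x axis) in each pool, with circles for control and squares for supplemented pools and dashed lines through 0 at the mean ratio of each group, 3.95 and 3.23. The supplemented pools follow their line closely over counts of S100A8 from 5869 to 11088, and every control lies above that line.

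Against log2 of the copper level, the ratios gave no relation past the adjusted threshold. For S100A9 to S100A8, r was -0.37 (permutation p = 0.306, or 0.612 adjusted over 4 measures of which the combined share was the fourth), with a rho of -0.66 (permutation p = 0.045, adjusted 0.152). Control pool 5 set this r apart from rho, and without this pool r was -0.78 (exact permutation p = 0.0139, adjusted 0.0556). With that pool left out, every control had less copper than every supplemented pool. This r can therefore not be told apart from the difference between the groups. Over all pools the groups meet only at the copper level of control pool 5 and supplemented pool 1, so rho carries much the same limit. For S100A12 to S100A9, r was 0.59 (permutation p = 0.0717, adjusted 0.287), with a rho of 0.60 (permutation p = 0.0758, adjusted 0.152). For S100A12 to S100A8, r was 0.12 (permutation p = 0.736, adjusted 0.736), with a rho of 0.00606 (permutation p = 1.00, adjusted 1.00). Without control pools 1 and 2, the farthest from the median copper level, these r were -0.48, 0.49 and -0.10. Correlations of the ratios with copper within a group were not computed, since each group holds 5 pools. At the shared copper level, the S100A9 to S100A8 ratio was 5.14 in control pool 5 and 3.24 in supplemented pool 1.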

How the data were processed

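Per the labels' protocols, stranded libraries were made from column-purified RNA of pooled blood. The submitters' processing notes name STAR 2.5.1b, HTSeq and the build UMD3.1, while the annotation and each tool's role are not given there. Each pool has a deposited table of raw read counts per Ensembl gene, in a column that ignores strand and a column per strand. The strand column that held 97.6% of stranded counts was used. The 4 rows that name no gene, 36.1 to 44.2% of a library's reads, were left out of library sizes. Multimapping reads are not assigned to genes, so reads shared with a near-identical copy are lost. Symbols of the 3 genes were paired with identifiers for this work, since the RefSeq table (37063 genes) holds 0 of the Ensembl identifiers. Members, lists and tests were chosen with earlier results of these data known, and lists that need symbols could not be used.

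All genes with enough counts (edgeR filterByExpr, minimum 10) were fitted together in R 4.3.3 with edgeR 4.0.16 (TMM, quasi-likelihood F test, Benjamini-Hochberg threshold 0.05) on group, log2 copper, or both. Standard errors came from the F statistic. The prior count for log2 CPM was 2. Ratios were tested by exact permutation and correlations by 100000 permutations (all orders below 10 pools). No p is given for the combined share, a sum over genes chosen with results known. The ratios use the same genes, so their p-values carry that limit too. The relations to library measures, the separation counts and the opposite-strand shares were chosen after the data were seen. The named genes were those with the highest and lowest r to the mean of the members, the first 2 of 5 each where no symbol was at hand. Alternatives were DESeq2 1.42.0, its size factors, library size alone, scaling without the 3 genes, no filter, unstranded counts, limma 3.58.1 voom, a replicate block, other copper scales, all reads as denominator and leaving out each pool. The tests were tested on simulated data.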

Additional observations from a re-analysis of the deposited data

Results flagged for a closer look

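Of 26 groups of 5 values, 3 held a pool that stood apart from the rest of its group, where chance sets apart about 1 in 20 groups, and several of these measures share counts. Control pool 5 had 5.14 S100A9 counts per S100A8 count, with the other controls at 3.47 to 3.86. Supplemented pool 4 had 1.85 S100A12 counts per S100A9 count, with the other supplemented pools at 1.36 to 1.45. Supplemented pool 4 also had the lowest share of S100A9 counts on the opposite strand of its group, 3.04%, with the others at 3.48 to 3.64%.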

How the results depend on the processing

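All alternatives were fixed with earlier results known and none was added later. Of 287 values under alternatives, over 20 results, 272 kept their direction and their side of the threshold, 9 changed sign, 5 no longer passed and 1 newly passed. With 1 pool left out, the log2 fold change of S100A9 between groups ranged from -0.00217 to 0.30, its slope on log2 copper from -0.0585 to 0.0779, that of S100A8 from -0.0130 to 0.15, and the slope of S100A12 with group as covariate from -0.24 to 0.0114. Likewise the difference in log2 ratio ranged from -0.32 to -0.18 for S100A9 to S100A8 and from 0.10 to 0.24 for S100A12 to S100A9, and r of the S100A12 to S100A8 ratio with log2 copper from -0.12 to 0.35. The slope of S100A9 on copper was -0.01 on the log2 scale and 0.0399 per 100 units on the linear scale. The cause of these changes was not tested.

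Both groups are numbered 1 to 5 in the titles, with no statement that equal numbers belong together. Deviations of same-numbered pools correlated at -0.28 to 0.42 across genes and 1 of 5 control pools had its own number as best match, so the pools were not treated as paired. In fits with a replicate block, the log2 fold changes were 0.43, 0.16 and 0.33 for S100A8, S100A9 and S100A12, the slope of S100A9 on log2 copper was 0.0255, and edgeR called 0 genes in both models, so that no call changed. Copper levels rise with the pool number in both groups, apart from small reversals among supplemented pools. In the copper model the block and the copper level within groups can therefore not be fully told apart. Counting intervals of the shares and ratios cover sequencing depth alone.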

Other observations

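The strand opposite to the annotation held a larger part of the S100A9 counts than of the other calgranulins. Of counts on either strand, S100A9 had 3.04 to 4.73% on the opposite strand over the 10 pools, S100A12 0.621 to 1.22% and S100A8 0.532 to 0.854%. Among 701 genes with at least 5000 counts in every pool, the median share was 1.37%, and 96.0% of these genes had a lower share than S100A9. The S100A9 share was 4.07 ± 0.615% (SD, n = 5) in the controls against 3.47 ± 0.247% (SD, n = 5) with supplement, a difference with an exact permutation p of 0.103 (two-sided, adjusted over the 3 genes 0.202). For S100A12 the shares were 1.03 ± 0.173% and 0.846 ± 0.160% (exact permutation p = 0.135, adjusted 0.202), and for S100A8 0.645 ± 0.0831% and 0.684 ± 0.106% (exact permutation p = 0.587, adjusted 0.587). In the RefSeq order, from another build than the counts, the gene after S100A9 is the long non-coding RNA LOC132344836. Its strand and any overlap with S100A9 were not examined. Which transcript these reads come from was not tested.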
